A study of Mus musculus with 6 samples.

Results

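The 35 genes described here encode the transporters that bring glucose into a cell, the enzymes that convert it to pyruvate and lactate, the transporters that move lactate across the plasma membrane, and the proteins that carry pyruvate into mitochondria and turn it into acetyl-CoA. They were taken by gene name from the 55426 genes of the table, and enolases were left out of the group. All 35 names were found, on 36 lines of the table, because *Aldoa* is listed under a pair of Ensembl identifiers. RNA was taken from whole abdominal aortas of male mice on a C57BL/6J background, 3 Prdm16SMKO and 3 control animals, each sequenced as a library of its own. The Prdm16SMKO mice were Prdm16 fl/fl Myh11-CreERT2, in which a Cre recombinase that tamoxifen activates is made under the *Myh11* promoter of vascular smooth muscle cells (VSMCs) from a cassette on the Y chromosome. The control mice carried Myh11-CreERT2 too, and the study calls them wild type. The study's methods give tamoxifen by gavage at 75 mg/kg/day for 5 days to mice aged 8 to 10 weeks, and RNA was isolated 2 weeks later with no other treatment. The recombinase acts in VSMCs, whereas the RNA came from every cell type of the vessel and of any tissue left on it. The comparison asked whether the loss of PRDM16 from VSMCs altered the expression of these genes in the unstressed aorta.

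Glucose enters cells through GLUT carriers, is trapped by hexokinase, and is split and oxidized to pyruvate, with net gain of ATP at the phosphoglycerate kinase and pyruvate kinase steps. Pyruvate is then either reduced to lactate, which leaves through monocarboxylate transporters, or carried into mitochondria, where the pyruvate dehydrogenase complex commits its carbon to the citrate cycle unless pyruvate dehydrogenase kinases switch the complex off. VSMCs are known for producing lactate even when oxygen is plentiful.

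The deposited values are TPM, a measure of transcript abundance relative to the library total that takes account of transcript length, so levels of different genes can be compared within a library. The depth of single libraries cannot be read from them, and the labels give an average of 40 M read pairs. *Prdm16*, the targeted gene, had 33.4, 36.8 and 30.8 TPM across control replicates 1 to 3 and 20.8, 27.7 and 14.8 TPM across Prdm16SMKO replicates 1 to 3, with no overlap between the groups (exact permutation test, two-sided p = 0.1, the smallest that 3 libraries against 3 can give). It was not called (log2 fold change −0.70, limma adjusted p = 0.376, and −0.48 without Prdm16SMKO replicate 3). All 10 VSMC markers were detected in every library, with a summed level of 17122 to 28625 TPM in control and 13441 to 19901 TPM in Prdm16SMKO aortas. Of these 10 markers 9 had a log2 fold change below 0, 3 of them at an unadjusted p under 0.05, with a median of −0.39 (−0.25 without Prdm16SMKO replicate 3), and 0 were called by limma. All 8 macrophage markers had a log2 fold change above 0, 6 of them at an unadjusted p under 0.05 and 0 called, with sums of 80.8 to 126 TPM in control and 127 to 234 TPM in Prdm16SMKO aortas. The 9 cardiomyocyte markers summed to 34.6 to 55.0 TPM in control and 341 to 383 TPM in Prdm16SMKO aortas, where *Tnnt2*, the 1 called gene of that list, made up most of the sum. Several libraries stood apart in markers of other cells. Prdm16SMKO replicate 3 had the highest sums of 9 adipocyte markers (4089 TPM, against 868 to 1742 TPM in the other 5 libraries) and of 7 brown adipocyte markers (750 TPM, against 18.4 to 284 TPM), and the lowest VSMC sum. Prdm16SMKO replicate 1 had the highest sums of skeletal muscle markers (137 TPM, against 11.8 to 27.9 TPM) and of neuron and Schwann cell markers (470 TPM, against 12.1 to 121 TPM). Prdm16SMKO replicate 2 had the highest sums of fibroblast markers (2056 TPM, against 1110 to 1528 TPM) and endothelial markers (517 TPM, against 278 to 347 TPM). Log2 fold changes were above 0 in 9 of 9 neuron and Schwann cell, 8 of 9 adipocyte and 7 of 8 fibroblast markers. The same held for 6 of 8 endothelial and 9 of 12 skeletal muscle markers tested, beside 54.2% of all genes. Brown adipocyte markers were below 0 in 5 of 6 tested. Erythroid markers summed to 19587 TPM in Prdm16SMKO replicate 2, against 1146 to 4962 TPM in the others, and 6 of the 7 were higher in Prdm16SMKO aortas at an unadjusted p under 0.05, with 0 called. Of all genes tested, 4.88% were higher and 3.85% lower in Prdm16SMKO aortas at that threshold. In control replicate 3, 31.4% of the TPM came from the 45S ribosomal RNA locus, against 15.6% to 29.9% in the others, and that library was the lowest of the 6 in 26 of the 35 members and in 40.5% of all genes tested. Since Prdm16SMKO replicate 3 moved many values, the plot of log2 fold changes shows every member with and without it.

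None of the 35 genes passed the test for a difference between Prdm16SMKO and control aortas. In limma's moderated test on log2(TPM + 0.5), with Benjamini-Hochberg adjustment over 15775 genes whose mean level reached 0.5 TPM, 0 of the 35 members were called at an adjusted p under 0.05, beside 0.355% of all genes tested (0.184% higher and 0.171% lower in Prdm16SMKO aortas). The lowest adjusted p of a member was 0.393. At an unadjusted p under 0.05 there were 2 members (5.71%, against 8.74% of all genes). One was *Slc16a3*, the lactate exporter MCT4, with the lower mean in Prdm16SMKO aortas (2.86% of members, against 3.85% of all genes in that direction). The other was *Dlat*, the acetyltransferase of the pyruvate dehydrogenase complex, with the higher mean (2.86%, against 4.88%). Values of the 2 groups were fully separated in 3 members (8.57%), against 12.8% of all genes. *Dlat* and *Pdha1* were separated upwards (5.71%, against 7.02%) and *Slc16a3* downwards (2.86%, against 5.76%). Of the 35 log2 fold changes, 29 lay between −0.5 and 0.5, and the one beyond 1 was that of *Aldoc*. The 95% intervals of 25 members lay within −1 and 1, so for those genes a difference of more than 2-fold lay outside the interval on this scale, and for the other 10 the interval reached past −1 or 1. A positive log2 fold change was found in 29 of the 35 members (82.9%), against 54.2% of all genes, with a median of 0.15 against 0.02. That count depended on single libraries. Without Prdm16SMKO replicate 3, 23 of 35 were above 0, with a median of 0.03 against 0.06 for all genes. Without control replicate 3, 18 of 35 were above 0, with a median of 0.01 against −0.07. Members at an unadjusted p under 0.05 numbered 6 without Prdm16SMKO replicate 2 (17.1%, against 7.33% of all genes in that fit) and 1, *Slc16a3*, without control replicate 3 (2.86%, against 8.68%), so their place above or below the share of all genes turned with the library left out.

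**Figure D1:**
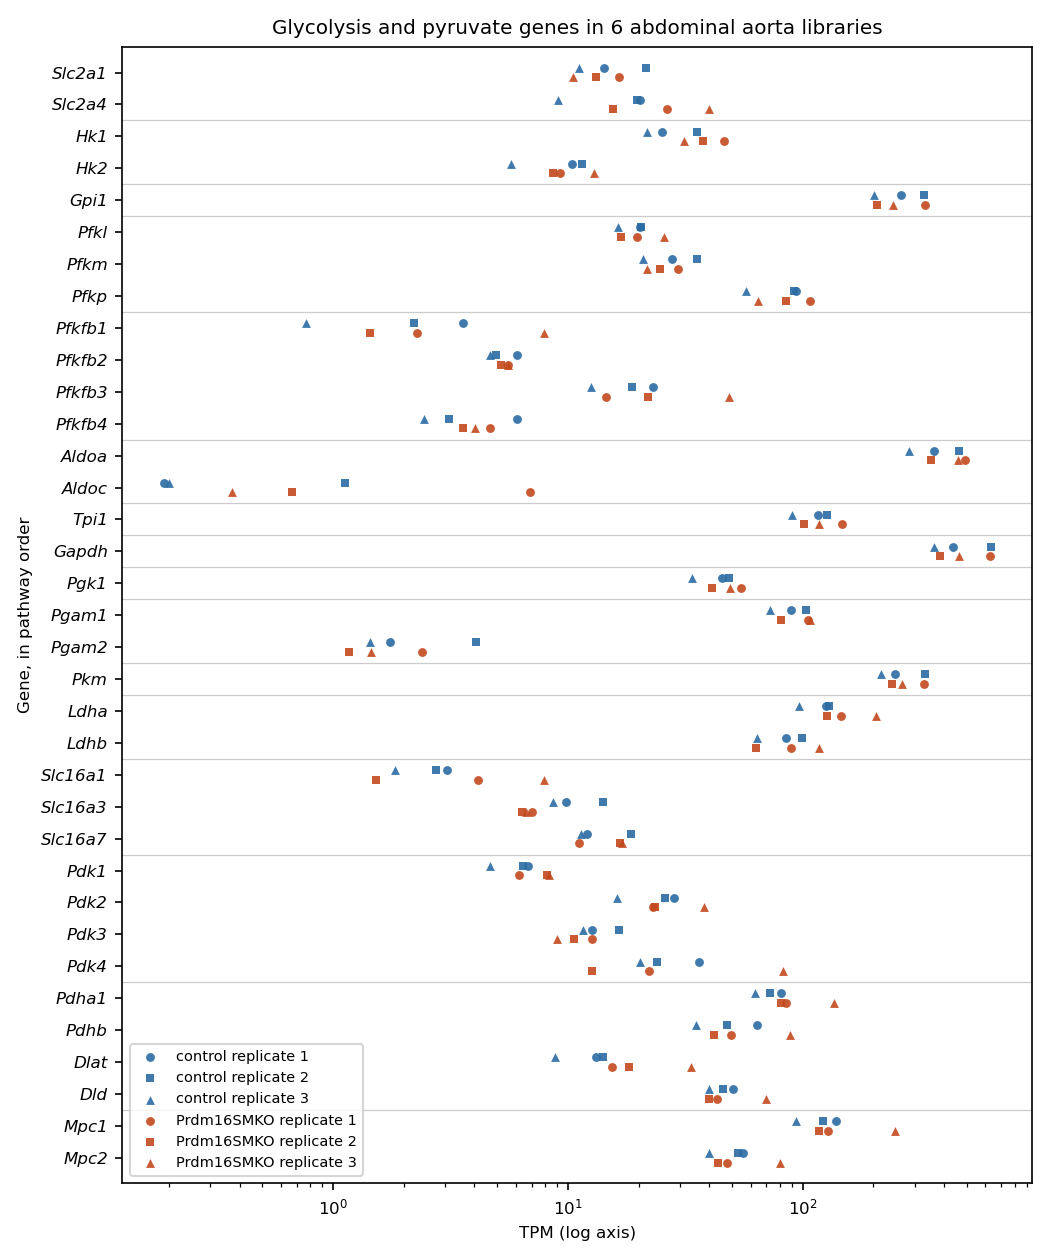
Level of each of the 35 genes in each of the 6 libraries, in TPM on a log axis, with control libraries in blue, Prdm16SMKO libraries in orange and 1 symbol per replicate number; grey lines separate the steps of the pathway. The levels run from 0.19 TPM for *Aldoc* to 633 TPM for *Gapdh*, and the groups overlap in every gene but *Slc16a3*, *Pdha1* and *Dlat*.

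**Figure D2:**
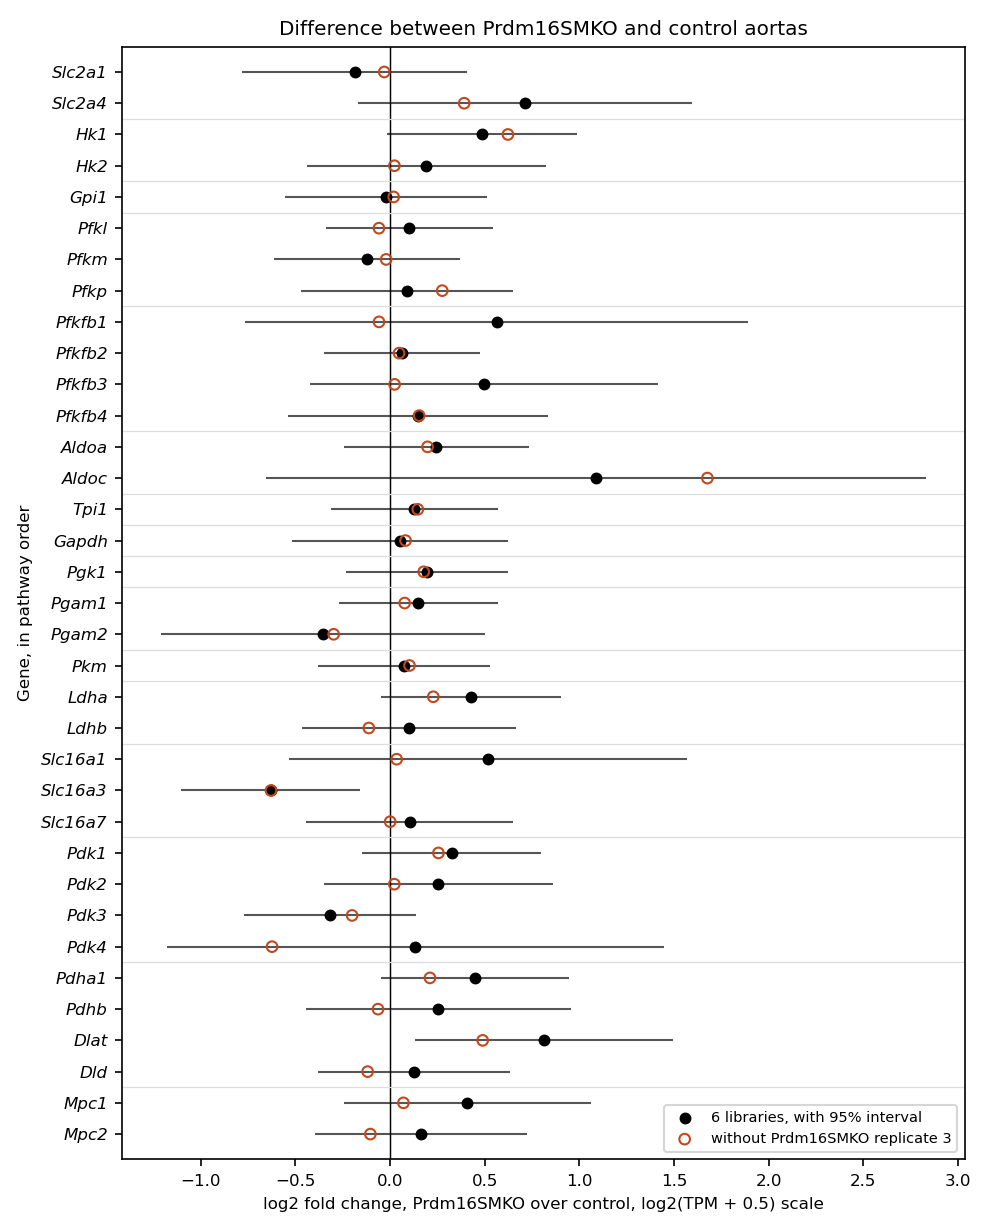
Log2 fold change of each gene, Prdm16SMKO over control, on the log2(TPM + 0.5) scale. Black points are the estimates from 6 libraries with their 95% intervals, and open orange points the estimates without Prdm16SMKO replicate 3. The intervals of 33 genes include 0, and those of *Slc16a3* and *Dlat* do not.

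Levels of the pathway genes in these aortas spanned a wide range on the TPM scale. *Gapdh*, glyceraldehyde 3-phosphate dehydrogenase, had the highest mean over the 6 libraries (484 TPM), followed by *Aldoa* (403 TPM), *Pkm* (271 TPM) and *Gpi1* (262 TPM). *Mpc1* (141 TPM), *Ldha* (138 TPM) and *Tpi1* (117 TPM) came next. The lowest 4 were *Slc16a1* (3.53 TPM), *Pfkfb1* (3.02 TPM), *Pgam2* (2.04 TPM) and *Aldoc* (1.58 TPM). *Gapdh* was above *Aldoa* in all 6 libraries. *Pkm* (216 to 331 TPM) and *Gpi1* (201 to 333 TPM) changed order between libraries, and so did *Mpc1* (93.5 to 248 TPM) and *Ldha* (96.7 to 206 TPM), so neither pair could be ordered. *Tpi1* (90.0 to 147 TPM) was above *Mpc1* and *Ldha* in Prdm16SMKO replicate 1, and its place below them was not fixed either. The 14 enzymes from hexokinase to pyruvate kinase summed to 1741, 2234 and 1384 TPM in control replicates 1, 2 and 3 and to 2311, 1581 and 1860 TPM in Prdm16SMKO replicates 1, 2 and 3. The ranges of the groups overlapped over most of their length.

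Glucose transporters and hexokinases head the pathway, and no member of either step was called. *Slc2a4* encodes GLUT4, the carrier that insulin brings to the surface of muscle and fat cells. It had 20.3, 19.6 and 9.05 TPM across control replicates 1 to 3 and 26.6, 15.5 and 40.0 TPM across Prdm16SMKO replicates 1 to 3. Its highest library was Prdm16SMKO replicate 3, and the groups overlapped (log2 fold change 0.71, standard error 0.39, and 0.39 without that library). *Slc2a1*, the widely expressed carrier GLUT1, averaged 15.7 ± 5.33 TPM in control and 13.4 ± 3.03 TPM in Prdm16SMKO aortas (SD, n = 3 each; log2 fold change −0.19, and −0.03 without Prdm16SMKO replicate 3). Its share of the summed TPM of *Slc2a1* and *Slc2a4* was 41.2% to 55.3% in control libraries and 20.8% to 45.9% in Prdm16SMKO libraries, with the lowest share in Prdm16SMKO replicate 3.

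*Hk1*, the hexokinase of most tissues, was at 25.1, 35.3 and 21.8 TPM in control and at 46.2, 37.5 and 31.1 TPM in Prdm16SMKO replicates 1, 2 and 3. Only control replicate 2 reached into the Prdm16SMKO range. The log2 fold change was 0.48 with a standard error of 0.22 (limma, unadjusted p = 0.057, adjusted p = 0.598) and 0.62 without Prdm16SMKO replicate 3, and its adjusted p was between 0.0834 and 0.954 over the alternatives. The unadjusted p fell under 0.05 with size factors, quantile normalization, TPM rescaled without mitochondrial and 45S genes, robust moderation, array weights or a replicate block. It also did without Prdm16SMKO replicate 3 or without control replicate 2, and not with the other alternatives. *Hk2*, the hexokinase typical of insulin-responsive muscle and fat, was lower in level at 5.70 to 12.98 TPM (log2 fold change 0.19, and 0.02 without Prdm16SMKO replicate 3). *Hk1* held 70.6% to 83.2% of the summed hexokinase TPM in the 6 libraries. *Gpi1*, which converts glucose 6-phosphate to fructose 6-phosphate, had the smallest log2 fold change of all members, with 264 ± 63.9 TPM in control and 261 ± 65.0 TPM in Prdm16SMKO aortas (SD, n = 3 each). It was at 264, 328 and 201 TPM in control and at 333, 207 and 242 TPM in Prdm16SMKO replicates 1, 2 and 3, and its log2 fold change was −0.02, with a 95% interval from −0.55 to 0.51.

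Phosphofructokinase 1 commits sugar to glycolysis, and its platelet-type subunit gene *Pfkp* was the main one in these aortas. *Pfkp* was at 93.5, 91.6 and 57.4 TPM in control and at 108, 84.9 and 64.8 TPM in Prdm16SMKO replicates 1, 2 and 3, a log2 fold change of 0.09 (0.28 without Prdm16SMKO replicate 3). The muscle-type gene *Pfkm* (20.9 to 35.5 TPM) and the liver-type gene *Pfkl* (16.4 to 25.6 TPM) were lower in every library. *Pfkp* made up 57.8% to 68.7% of the 3 genes' TPM, *Pfkm* 18.8% to 24.0% and *Pfkl* 12.6% to 22.8%. The lowest *Pfkp* share and the highest *Pfkl* share were in Prdm16SMKO replicate 3.

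The PFKFB enzymes set the amount of fructose 2,6-bisphosphate, the strongest activator of phosphofructokinase 1. *Pfkfb3*, the isoform with the highest ratio of kinase to phosphatase activity, was at 23.1, 18.8 and 12.5 TPM in control and at 14.6, 21.9 and 48.5 TPM in Prdm16SMKO replicates 1, 2 and 3. Prdm16SMKO replicate 3 was more than 2 times every other library, and without it the log2 fold change fell from 0.50 to 0.02. *Pfkfb1*, known from liver and skeletal muscle, was also highest there, at 7.91 TPM against 0.77 to 3.57 TPM in the other libraries. *Pfkfb2* was the steadiest member, between 4.64 and 6.08 TPM in all 6 libraries, and *Pfkfb4* ranged from 2.45 to 6.09 TPM. *Pfkfb3* held 53.8% to 73.5% of the 4 genes' TPM in every library.

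Leaving enolase aside, each step from aldolase to pyruvate kinase rested mainly on 1 gene in these aortas, and no member of these steps was called. *Aldoa*, which splits fructose 1,6-bisphosphate, was at 363, 463 and 285 TPM in control and at 494, 352 and 459 TPM in Prdm16SMKO replicates 1, 2 and 3. Its log2 fold change was 0.24, with a 95% interval from −0.25 to 0.73, and ran from 0.07 without control replicate 3 to 0.42 without control replicate 2. It made up at least 98.6% of aldolase TPM in each library. *Aldoc*, the aldolase of brain, was at 6.91 TPM in Prdm16SMKO replicate 1, the library with the highest neuron and Schwann cell markers, and at 0.19 to 1.12 TPM in the other 5 libraries. Its log2 fold change of 1.09 had a 95% interval from −0.65 to 2.83, and its value without Prdm16SMKO replicate 1 was 0.13. The part of those cells in the *Aldoc* value was not tested.

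*Tpi1*, triosephosphate isomerase, was at 117, 127 and 90.0 TPM in control and at 147, 101 and 117 TPM in Prdm16SMKO replicates 1, 2 and 3 (log2 fold change 0.13). *Gapdh* was at 436, 633 and 363 TPM in control and at 629, 384 and 462 TPM in Prdm16SMKO replicates 1, 2 and 3. The libraries of the groups were interleaved, with a log2 fold change of 0.05, a standard error of 0.25 and a 95% interval from −0.52 to 0.62. *Gapdh* was the reference gene of the study's quantitative PCR, and in these libraries its TPM varied 1.74-fold from the lowest to the highest. *Pgk1*, phosphoglycerate kinase, was at 45.4, 48.4 and 33.7 TPM in control and at 54.9, 41.2 and 49.2 TPM in Prdm16SMKO aortas (log2 fold change 0.19, and 0.04 without control replicate 3).

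*Pgam1*, the widely expressed phosphoglycerate mutase, was at 89.1, 104 and 72.4 TPM in control and at 105, 81.2 and 107 TPM in Prdm16SMKO replicates 1, 2 and 3 (log2 fold change 0.15, and 0.08 without Prdm16SMKO replicate 3). It held at least 96.2% of mutase TPM, and the muscle isoform *Pgam2* stayed between 1.17 and 4.08 TPM. *Pkm*, the pyruvate kinase of tissues other than liver and red cells, was at 248, 331 and 216 TPM in control and at 328, 240 and 265 TPM in Prdm16SMKO replicates 1, 2 and 3. Its log2 fold change was 0.07, with a 95% interval from −0.38 to 0.53. Gene-level TPM does not separate the M1 and M2 splice forms of *Pkm*.

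Pyruvate is turned to lactate by lactate dehydrogenase, whose A subunit is typical of lactate-producing tissues and whose B subunit is typical of lactate-consuming ones such as heart. *Ldha* was at 125, 129 and 96.7 TPM in control and at 146, 128 and 206 TPM in Prdm16SMKO replicates 1, 2 and 3. The groups overlapped through Prdm16SMKO replicate 2 (log2 fold change 0.43, standard error 0.21, and 0.23 without Prdm16SMKO replicate 3). *Ldhb* was at 82.6 ± 17.5 TPM in control and 89.9 ± 26.8 TPM in Prdm16SMKO aortas (SD, n = 3 each). The share of *Ldha* in the summed TPM of the 2 genes was 59.7%, 56.7% and 60.1% in control replicates 1, 2 and 3 and 62.0%, 66.8% and 63.7% in Prdm16SMKO replicates 1, 2 and 3. All Prdm16SMKO shares lay above all control shares, with means of 64.2 ± 2.41% and 58.8 ± 1.89% (SD, n = 3 each). The exact two-sided permutation p was 0.1, the smallest possible, and 0.887 after adjustment over the 19 shares tested.

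Lactate and pyruvate cross the plasma membrane through monocarboxylate transporters. *Slc16a3* (chromosome 11 of GRCm38, 120948480 to 120960868) encodes MCT4, a low-affinity carrier known for lactate export from glycolytic cells, and was at 9.85, 14.1 and 8.61 TPM in control and at 7.06, 6.35 and 6.66 TPM in Prdm16SMKO replicates 1, 2 and 3. All Prdm16SMKO libraries lay below all control libraries and close to each other, at 6.69 ± 0.356 TPM against 10.9 ± 2.89 TPM (SD, n = 3 each). The log2 fold change was −0.63 with a standard error of 0.21 and a 95% interval from −1.10 to −0.16 (limma, unadjusted p = 0.014, adjusted p = 0.393). It was −0.63 without Prdm16SMKO replicate 3 too, and between −0.78 and −0.43 with each library left out in turn, while the adjusted p ran from 0.0842 to 0.659 over the alternatives. *Slc16a7*, the high-affinity carrier MCT2, was the transporter with the highest mean, at 12.1, 18.5 and 11.4 TPM in control and at 11.2, 16.7 and 17.1 TPM in Prdm16SMKO replicates 1, 2 and 3 (log2 fold change 0.10, and near 0 without Prdm16SMKO replicate 3). *Slc16a1*, the widespread carrier MCT1, was at 3.05, 2.74 and 1.83 TPM in control and at 4.13, 1.53 and 7.89 TPM in Prdm16SMKO aortas, highest again in Prdm16SMKO replicate 3.

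The share of *Slc16a3* in the TPM of the 3 transporters was 39.4%, 39.9% and 39.5% in control replicates 1, 2 and 3 and 31.5%, 25.9% and 21.1% in Prdm16SMKO replicates 1, 2 and 3. The control shares were within 1 percentage point of each other, and all Prdm16SMKO shares were lower, with means of 39.6 ± 0.267% and 26.2 ± 5.23% (SD, n = 3 each; exact two-sided permutation p = 0.1, adjusted p = 0.887 over the 19 shares). *Ldha* and *Slc16a3* were the 2 of those 19 shares whose groups did not overlap. Levels of 12.8% of all genes tested did not overlap either, so this count does not set the shares apart from genes at large. Several marker lists given above, among them VSMC, macrophage, erythroid, neuron and Schwann cell, adipocyte and fibroblast markers, each shifted mostly in a single direction between the groups. Macrophage sums did not overlap between the groups, whereas VSMC and erythroid sums did. The part of these cells in the *Slc16a3* level and in the *Ldha* and *Slc16a3* shares was not tested. A share does not depend on how a library is scaled, and in whole tissue fewer cells of a type cannot be told apart from less RNA per cell.

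**Figure D3:**
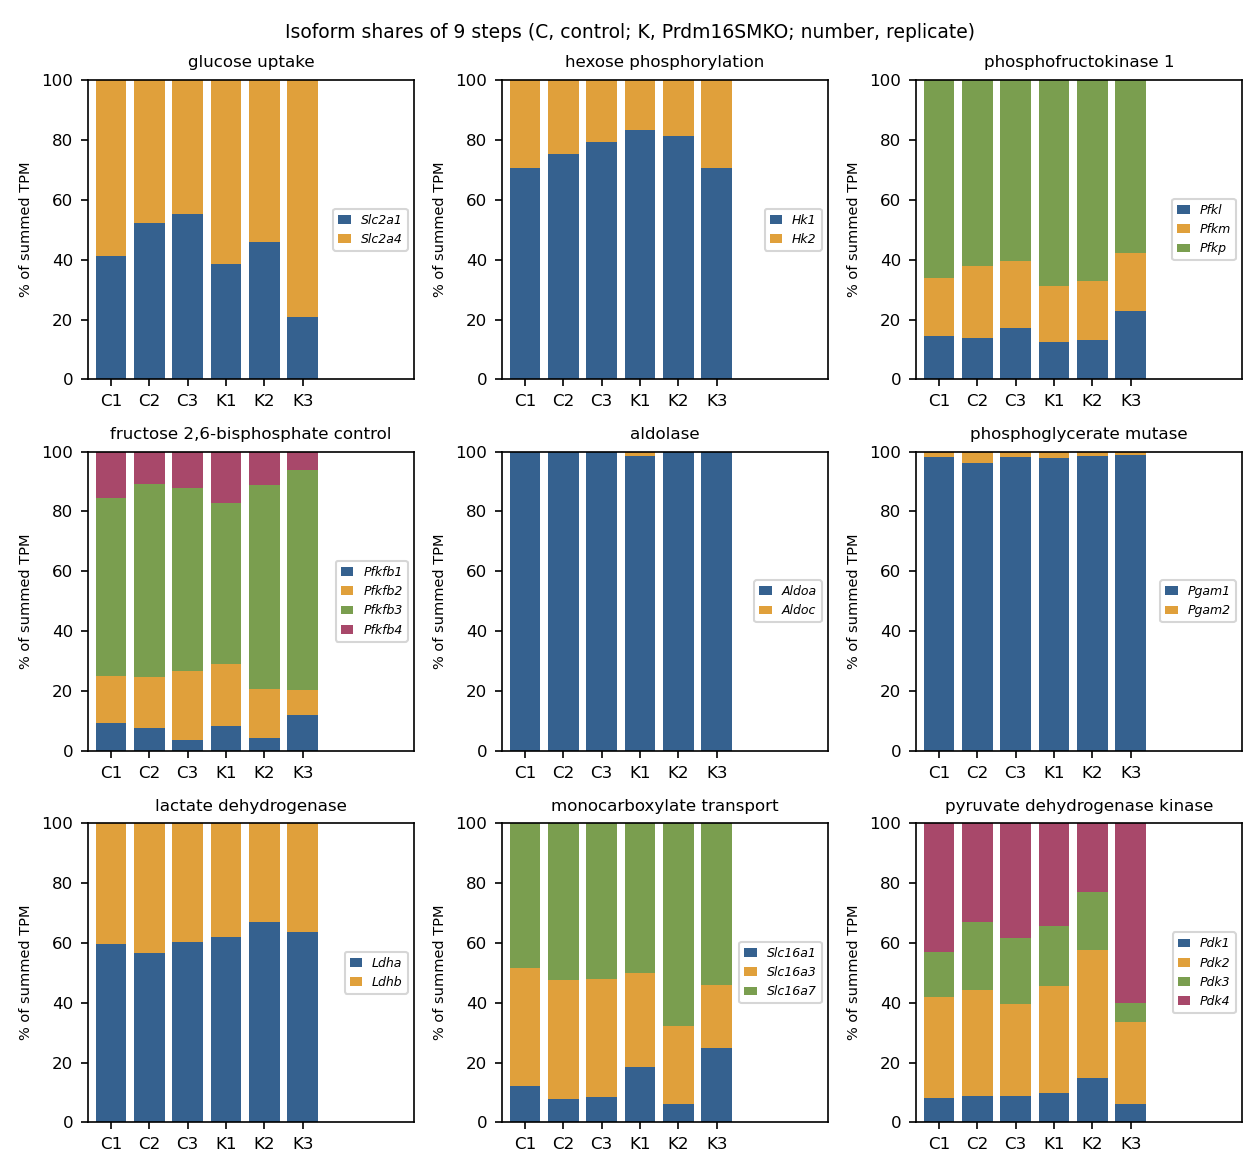
Share of each isoform in the summed TPM of its step, in percent, for 9 steps with more than 1 gene. C1 to C3 are control and K1 to K3 Prdm16SMKO replicates, and each bar is 1 library. The bars of *Ldha* are higher and those of *Slc16a3* shorter in K1 to K3 than in C1 to C3, while in the other 7 steps the groups overlap.

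The promoters of *Slc16a3* and *Ldha*, the genes whose shares separated the groups, and of *Dlat*, the other member at an unadjusted p under 0.05, are shown as the 250 bases before the start of the RefSeq transcript (GRCm38.p6), read 5′ to 3′ on the gene's strand. Capitals mark ACGTG or its reverse complement CACGT, the core of the element that hypoxia-inducible factors are known to bind. They overlap where the letters CACGTG occur. The windows are chr11:120948817-120949066 (plus strand) for *Slc16a3*, chr7:46845554-46845803 (plus strand) for *Ldha* and chr9:50659781-50660030 (minus strand) for *Dlat*. The RefSeq transcripts of *Slc16a3* and *Ldha* start downstream of the GENCODE gene starts, so these 2 windows lie inside the GENCODE gene spans.
Slc16a3: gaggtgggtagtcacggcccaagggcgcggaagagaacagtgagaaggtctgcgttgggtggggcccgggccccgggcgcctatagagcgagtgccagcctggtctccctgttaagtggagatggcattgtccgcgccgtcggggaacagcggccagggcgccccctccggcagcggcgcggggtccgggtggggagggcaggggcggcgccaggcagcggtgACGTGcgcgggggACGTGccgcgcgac
Ldha: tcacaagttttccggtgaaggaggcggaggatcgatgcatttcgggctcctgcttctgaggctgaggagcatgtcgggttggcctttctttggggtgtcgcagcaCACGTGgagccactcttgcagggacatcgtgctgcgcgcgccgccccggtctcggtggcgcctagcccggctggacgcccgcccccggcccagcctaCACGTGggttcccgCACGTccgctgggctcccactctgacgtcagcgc
Dlat: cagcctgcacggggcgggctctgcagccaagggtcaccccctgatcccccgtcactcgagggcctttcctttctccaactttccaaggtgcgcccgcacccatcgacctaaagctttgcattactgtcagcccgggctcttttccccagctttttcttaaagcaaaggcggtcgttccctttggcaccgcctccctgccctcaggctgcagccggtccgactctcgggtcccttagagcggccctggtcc
Counted on both strands, *Slc16a3* had 2 matches, *Ldha* 5 and *Dlat* 0. RefSeq windows of 300 bases, from 250 before the start to 50 after it, were found for 33 of the 35 members. ACGTG or CACGT occurred in 18 of those 33 (54.5%) and in 21.8% of all 27025 genes with a window. Counted per window, the share was 43.1% of 51 windows for members and 19.6% of 32851 for all genes. Of the enzymes from hexokinase to pyruvate kinase, *Hk1*, *Hk2*, *Pfkm*, *Aldoa*, *Aldoc*, *Gapdh*, *Pgk1*, *Pgam1* and *Pkm* had a match. *Gpi1*, *Pfkl*, *Pfkp*, *Tpi1* and *Pgam2* had none. Of the pyruvate dehydrogenase complex and mitochondrial pyruvate carrier genes, only *Pdhb* had a match. *Pdha1*, *Dlat*, *Dld*, *Mpc1* and *Mpc2* had none. Of the kinases of that complex, *Pdk2* and *Pdk3* had a match, and *Pdk1* and *Pdk4* had none. No factor binding was measured in these libraries, and a match is a stretch of letters only.

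The pyruvate dehydrogenase complex and the mitochondrial pyruvate carrier, which bring pyruvate to the citrate cycle, were highest in Prdm16SMKO replicate 3 for all 6 genes. *Pdha1*, the catalytic alpha subunit (chromosome X, 160122209 to 160138413), was at 81.22, 72.4 and 62.5 TPM in control and at 84.8, 81.23 and 136 TPM in Prdm16SMKO replicates 1, 2 and 3. The groups did not overlap, but control replicate 1 and Prdm16SMKO replicate 2 were nearly equal. Its log2 fold change was 0.45 with a 95% interval from −0.05 to 0.95 (limma, adjusted p = 0.649), and 0.21 without Prdm16SMKO replicate 3. *Dlat* (chromosome 9, 50634633 to 50659780) was at 13.2, 14.1 and 8.81 TPM in control and at 15.5, 18.2 and 33.5 TPM in Prdm16SMKO replicates 1, 2 and 3. Each Prdm16SMKO library was above each control library, with means of 22.4 ± 9.70 and 12.04 ± 2.83 TPM (SD, n = 3 each). The log2 fold change was 0.81 with a standard error of 0.30 and a 95% interval from 0.13 to 1.49 (limma, unadjusted p = 0.024, adjusted p = 0.458). Without Prdm16SMKO replicate 3 it was 0.49, and the adjusted p ran from 0.161 to 0.747 over the alternatives. The unadjusted p of *Dlat* was no longer under 0.05 without Prdm16SMKO replicate 3, without control replicate 3 or with a replicate block.

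The remaining subunits overlapped between the groups. *Pdhb*, the beta subunit of the first enzyme of the complex, was at 35.1 to 64.0 TPM in control and at 49.4, 41.8 and 88.6 TPM in Prdm16SMKO replicates 1, 2 and 3. *Dld*, the dihydrolipoamide dehydrogenase that other 2-oxoacid dehydrogenases share, was at 40.1 to 50.5 TPM in control and at 43.2, 40.1 and 69.5 TPM in Prdm16SMKO aortas. Their log2 fold changes of 0.26 and 0.13 became −0.06 and −0.12 without Prdm16SMKO replicate 3. *Mpc1* was at 139, 122 and 93.5 TPM in control and at 128, 117 and 248 TPM in Prdm16SMKO replicates 1, 2 and 3, and its partner *Mpc2* at 39.8 to 55.6 TPM in control and at 47.6, 43.6 and 79.8 TPM in Prdm16SMKO aortas. Without Prdm16SMKO replicate 3 the differences were 0.07 for *Mpc1* and −0.10 for *Mpc2*. The table also lists a near copy, *Mpc1-ps*, at 42.8 to 124 TPM, and how reads were divided between it and *Mpc1* is uncertain. *Mpc1* held 63.1% to 73.3% of the sum of the 2, and the difference between groups in the mean log2 of the sum was 0.30 (exact permutation test, two-sided p = 0.6). The sum was 218, 175 and 148 TPM in control and 177, 160 and 372 TPM in Prdm16SMKO replicates 1, 2 and 3. Only Prdm16SMKO replicate 3 lay above the control range.

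Per 100 TPM of glycolytic enzymes, the 6 pyruvate entry genes had 23.2, 15.9 and 20.2 TPM in control and 15.9, 21.7 and 35.2 TPM in Prdm16SMKO replicates 1, 2 and 3. Prdm16SMKO replicates 1 and 2 lay within the control range and replicate 3 above it. In that library *Ucp1*, the uncoupling protein that defines brown fat, was at 170 TPM and *Cidea* at 308 TPM. All 7 brown adipocyte markers were detected there and in the 3 control libraries. In the other 5 libraries *Ucp1* ran from 0 in Prdm16SMKO replicate 2, where *Cox7a1* and *Elovl3* were also listed at 0, to 49.0 TPM in control replicate 1. The part of adipocytes in the values of Prdm16SMKO replicate 3 was not tested. That library was the highest of the 6 in 18 of the 35 members, against 11.1% of all genes tested.

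**Figure D4:**
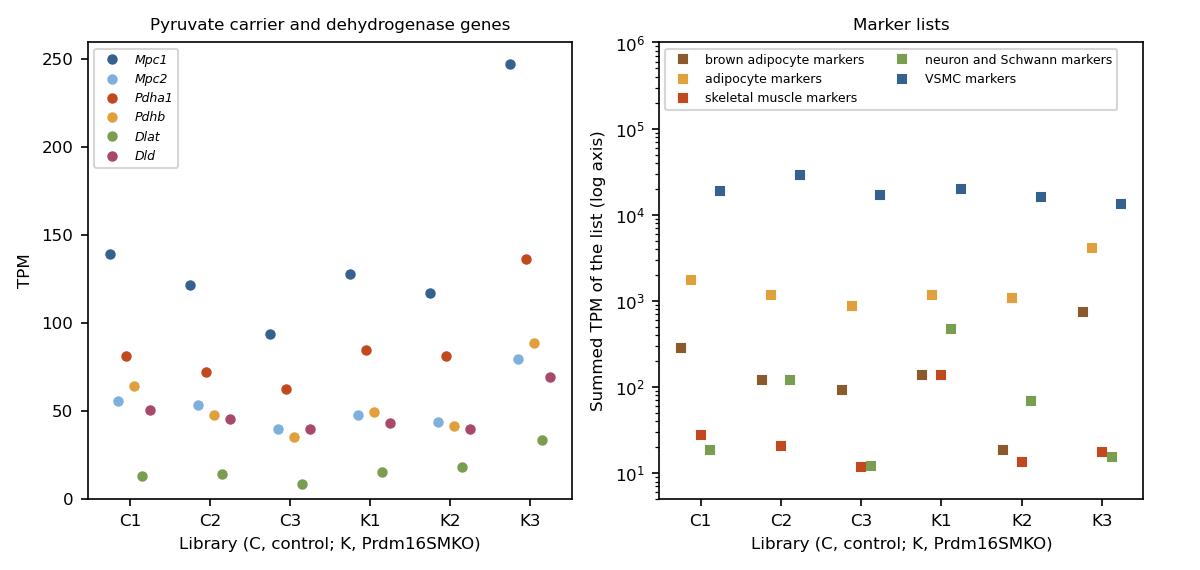
Left, TPM of the 6 pyruvate carrier and dehydrogenase genes in each library; right, summed TPM of 5 marker lists on a log axis. Points are shifted sideways within a library so that none is hidden, C1 to C3 are control and K1 to K3 Prdm16SMKO replicates. All 6 genes are highest in K3, where brown adipocyte markers sum to 750 TPM and adipocyte markers to 4089 TPM.

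Pyruvate dehydrogenase kinases, which phosphorylate and inactivate the complex, differed in how steady they were between libraries. *Pdk4*, the isoform induced by fasting and fatty acids, was at 36.2, 24.0 and 20.4 TPM in control and at 22.1, 12.7 and 82.9 TPM in Prdm16SMKO replicates 1, 2 and 3. The highest and the lowest library were both Prdm16SMKO, 6.54-fold apart, the widest spread of any member with a mean above 5 TPM. The log2 fold change was 0.13 with a standard error of 0.58, and it turned to −0.62 without Prdm16SMKO replicate 3. *Pdk4* accounted for 60.0% of the TPM of the 4 kinase genes in that library and for 23.1% to 43.1% in the others. *Pdk2*, the widely expressed isoform, was at 23.5 ± 6.43 TPM in control and 28.1 ± 8.47 TPM in Prdm16SMKO aortas, and *Pdk1*, a target of hypoxia-inducible factor, at 5.96 ± 1.13 and 7.56 ± 1.18 TPM (SD, n = 3 each). *Pdk3* was at 13.6 ± 2.61 TPM in control and 10.8 ± 1.86 TPM in Prdm16SMKO aortas (SD, n = 3 each; log2 fold change −0.32, and −0.20 without Prdm16SMKO replicate 3; limma adjusted p = 0.779).

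Beside the members, the enolase *Eno1b* was called (log2 fold change 5.96), at 0.44 to 1.5 TPM in control and 58.3 to 107 TPM in Prdm16SMKO aortas. With a replicate block that call was lost (limma adjusted p = 0.0608). The near-identical copy *Eno1* was at 80.1 to 132 TPM in control and 42.0 to 74.2 TPM in Prdm16SMKO aortas (limma adjusted p = 0.338). Reads of the 2 copies cannot be told apart with certainty, and the enolases together summed to 96.3 to 155 TPM in control and 120 to 197 TPM in Prdm16SMKO aortas. No other gene of the related pathway lists was called as the data were fitted here, though array weights brought *Eno1* and *Ddit4* under the threshold (adjusted p = 0.0303 and 0.0429). Among 11 other sugar genes tested, 0 were called and 1 had an unadjusted p under 0.05, beside 8.74% of all genes tested. The sugar gene at that threshold was *Slc2a3*, the high-affinity glucose carrier GLUT3, at 1.87, 1.83 and 1.08 TPM in control and 6.65, 5.30 and 2.03 TPM in Prdm16SMKO replicates 1, 2 and 3 (log2 fold change 1.20, limma adjusted p = 0.390). Its highest library was Prdm16SMKO replicate 1, which was also highest in neuron and Schwann cell markers, and the part of these, the macrophage and the erythroid markers in its value was not tested. Among 18 other pyruvate and lactate genes, 0 were called and 2 had an unadjusted p under 0.05, both higher, beside 4.88% of all genes in that direction. *Pcx*, pyruvate carboxylase, was at 5.91 to 18.2 TPM in control and at 14.1, 19.1 and 52.7 TPM in Prdm16SMKO replicates 1, 2 and 3, again highest in replicate 3. *Gpt2*, a mitochondrial alanine transaminase, was at 3.44 ± 1.52 and 6.27 ± 2.28 TPM (SD, n = 3 each).

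Of 20 genes of the hypoxia response, many of which share regulators with glycolytic genes, 0 were called. At an unadjusted p under 0.05, 2 were higher and 2 lower, beside 4.88% and 3.85% of all genes tested. *Ddit4*, an inhibitor of mTORC1 signalling, was at 7.33 ± 1.63 TPM in control and 10.8 ± 1.69 TPM in Prdm16SMKO aortas, and *Ndrg1* at 85.3 ± 13.4 and 58.9 ± 11.4 TPM (SD, n = 3 each; limma adjusted p = 0.489 and 0.452). The median log2 fold change of the 20 was 0.07. No gene of the pentose phosphate pathway (7 tested) or of glycogen metabolism (13 tested) had an unadjusted p under 0.05, with medians of 0.24 and 0.09 (0.17 and −0.05 without Prdm16SMKO replicate 3). Log2 fold changes were above 0 in 7 of 7 pentose phosphate genes and 8 of 13 glycogen genes, and in 7 of 7 and 6 of 13 without Prdm16SMKO replicate 3. In the citrate cycle 16 of 17 genes had a log2 fold change above 0, beside 54.2% of all genes tested. Their median was 0.25, and none had an unadjusted p under 0.05. Without Prdm16SMKO replicate 3 the count of citrate cycle genes above 0 was 8 of 17. No list was tested as a set, and the median of all genes tested was 0.02.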

How the data were processed

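Poly(A) RNA of 6 abdominal aortas was sequenced by the authors as 151 bp pairs. The authors deposited TPM values per gene, which account for transcript length and add up to 1 fixed total in each library. The submitters' processing notes name bcl2fastq, cutadapt 2.3, FastQC 0.11.8, STAR 2.7.8a, RSEM 1.3.3, MultiQC 1.7 and the GRCm38 build. The annotation release is not given in the sources used here. TPM holds no read counts, so no count test was run and depth per library is unknown. TPM also moves with the share of mitochondrial and 45S ribosomal transcripts.

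Values were taken as log2(TPM + 0.5), a scale that understates changes of low genes, for 15775 genes whose mean over the libraries reached 0.5 TPM. Groups, read from the sample titles, were compared with limma 3.58.1 (R 4.3.3), fitted as a linear model without covariates, with variances moderated along a trend and two-sided Benjamini-Hochberg adjusted p-values over all genes tested. Genes with an adjusted p under 0.05 were called. All 35 members passed the minimum, and the second *Aldoa* entry (at most 0.43 TPM) did not. Isoform shares were compared by exact permutation tests, adjusted over 19 shares. Limma p-values weigh the group difference against the spread between these libraries, moderated over all genes. Permutation p-values rank it among all relabellings of the groups. Members and lists were chosen with earlier results of these data known. All members are named, with every library's value for those at an unadjusted p under 0.05, without overlap, or with the highest mean of their step; of other pathway lists, called genes and up to 2 with the largest change at an unadjusted p under 0.05 are named, and *Tnnt2*, *Ucp1*, *Cidea*, *Cox7a1* and *Elovl3* were chosen after their values were seen.

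Other settings tried were a pseudocount of 0.1 or of 1, no minimum, a minimum mean of 2 TPM, median-of-ratios size factors, quantile normalization, TPM rescaled without mitochondrial and 45S genes, no trend, robust moderation, array weights, a replicate block and each library left out. Gene positions come from GENCODE M21 and promoters from RefSeq (GRCm38.p6). Python 3.11.15 with pandas 2.3.3, numpy 2.4.6, statsmodels 0.14.6, scipy 1.17.1 and matplotlib 3.10.9 was used for tables and figures.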

Additional observations from a re-analysis of the deposited data

How the results depend on the processing

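No member was called under any of the 17 alternatives, and the lowest adjusted p reached was 0.0834, for *Hk1*. The number of genes called over the whole table, 56 as reported, was 10 with no minimum, 153 with size factors (60 higher and 93 lower, against 29 and 27 as reported), 129 with quantile normalization (46 and 83), 123 with TPM rescaled without mitochondrial and 45S genes, 33 without the trend, 112 with robust moderation, 494 with array weights and 5 to 61 with each library left out. With a replicate block it was 4, and *Eno1b* lost its call (adjusted p = 0.0608). The sample titles tie replicate numbers to no batch, litter or day. Same-numbered libraries correlated at −0.13, −0.11 and 0.02 in their deviations from the group means, and none correlated best with its own number. No pairing was seen in these values, which cannot show that same-numbered animals shared nothing. Members at an unadjusted p under 0.05 numbered 4 with size factors (11.4%, against 13.7% of all genes in that fit), 5 with quantile normalization (14.3%, against 12.7%), 4 with the rescaled TPM (11.4%, against 12.04%), 4 with array weights (11.4%, against 20.1%) and 1 to 6 with a library left out; *Slc16a3* was among them in every one of these fits. Members with a log2 fold change above 0 numbered 17 with array weights, which gave control replicate 1 a weight of 10.1 and the others 0.41 to 0.95, and 18 (without control replicate 3) to 33 with a library left out.

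Of 594 member values under the alternatives, 552 kept the sign and 42 reversed it; 15 members kept it throughout. Array weights turned the log2 fold change of *Hk2* to −0.0481, *Pfkl* to −0.0285, *Pfkp* to −0.10, *Pfkfb1* to −0.26, *Pfkfb2* to −0.13, *Pfkfb4* to −0.45, *Ldhb* to −0.0159, *Pdk2* to −0.0681, *Pdk4* to −0.47, *Pdhb* to −0.20, *Dld* to −0.0715 and *Mpc2* to −0.058, and quantile normalization turned *Gpi1* to 0.0357 and *Pfkfb2* to −0.0185. With each library left out, the log2 fold change ran from −0.40 to 0.0621 for *Slc2a1*, −0.10 to 0.38 for *Hk2*, −0.21 to 0.15 for *Gpi1*, −0.0588 to 0.24 for *Pfkl*, −0.31 to 0.0609 for *Pfkm*, −0.14 to 0.28 for *Pfkp*, −0.0584 to 1.003 for *Pfkfb1*, −0.0094 to 0.17 for *Pfkfb2*, −0.10 to 0.48 for *Pfkfb4*, −0.0161 to 0.25 for *Tpi1*, −0.14 to 0.28 for *Gapdh*, −0.60 to 0.0237 for *Pgam2*, −0.0614 to 0.25 for *Pkm*, −0.11 to 0.33 for *Ldhb*, −0.024 to 0.32 for *Slc16a7*, −0.62 to 0.71 for *Pdk4*, −0.0637 to 0.47 for *Pdhb*, −0.12 to 0.28 for *Dld* and −0.10 to 0.33 for *Mpc2*. Differences in share, in percentage points, ran from −2.26 to 2.86 for *Pfkl*, −0.45 to 4.99 for *Pfkp*, −0.44 to 3.33 for *Pfkfb1*, −0.81 to 8.999 for *Pfkfb3*, −4.19 to 1.37 for *Pfkfb4*, −0.72 to 3.71 for *Pdk1*, −1.64 to 5.97 for *Pdk2* and −9.40 to 9.08 for *Pdk4*. The cause of these moves was not tested. *Aldoc* was below the minimum of 2 TPM and gave no value there.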

Other observations

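Near copies of members other than *Mpc1-ps* were low in every library. *Pgam1-ps2* was at 0.37 to 1.33 TPM, *Gapdh-ps15* was listed at 0 to 0.25 TPM, and *Ldha-ps* was listed at 0 in 5 libraries and at 0.11 TPM in Prdm16SMKO replicate 3. After scaling by median-of-ratios size factors, Prdm16SMKO replicate 3 was the highest library in 21 of the 35 members, and control replicate 3 was the lowest in 10 instead of 26, while Prdm16SMKO replicate 2 was the lowest in 14 instead of 5.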
